A study of Homo sapiens with 6 samples.

Results

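The HOX genes of the array table were described here in cultures of the human prostate carcinoma line PC-3, which grows without androgen, given menthol or vehicle. A gene was a member if its probeset carried a single symbol made of HOXA, HOXB, HOXC or HOXD followed by digits alone. This gave 27 of the 18404 genes with a single symbol: 1 HOXA gene, 10 HOXB genes, 7 HOXC genes and 9 HOXD genes. Each had a single probeset, so the clause that keeps the brightest probeset of a gene chose nothing. The gene annotation lists 39 HOX genes in the 4 HOX clusters. Those without such a probeset were not analysed here, among them every HOXA gene but HOXA2. A probeset with several symbols, of which 1 or more is HOX, was left out too. The menthol group was 3 arrays of cells given menthol dissolved in ethanol, and the vehicle group was 3 arrays of cells given ethanol alone, at a working concentration of 0.1%. All cells grew in DMEM with 10% serum, and each array received biotin-labelled target made from 300 ng of total RNA. Neither the dose of menthol nor the length of treatment was stated in the labels, and the study used a single cell line.

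HOX genes encode transcription factors that bind DNA through a homeodomain and give cells their position along the body axis. They lie in 4 clusters, in an order that matches the order in which they are used from head to tail, and genes with the same number in different clusters are paralogues descended from a common ancestor. Many adult epithelia keep the HOX pattern of their origin: the prostate is a posterior organ and its epithelium expresses HOXB13, which can bind the androgen receptor. The proteins often bind DNA beside PBX and MEIS cofactors, and Polycomb and MLL complexes hold the clusters silent or active.

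With menthol, 4 HOX genes fell and 2 rose. All measured HOX genes that passed as decreases in this fit lie in the HOXB cluster. HOXB9 was 2.88-fold lower, HOXB13 1.71-fold, HOXB6 1.68-fold and HOXB5 1.61-fold. HOXC13 narrowly missed the threshold (adjusted p = 0.0530) and passed as a decrease under 6 of 17 alternative settings of the analysis. The HOXA cluster was measured through HOXA2 alone, so a decrease in its other genes could not be seen. HOXB1 was 1.30-fold higher and HOXC5 1.27-fold higher. The 6 changed genes are 6 of 27, where 29.1% of all genes changed, and the other 21 HOX genes did not pass an adjusted p of 0.05 (limma, Benjamini-Hochberg over all 18404 genes). The share of HOX genes that fell was 14.8%, close to the 14.5% of all genes, and 7.41% rose, against 14.6% of all genes. All 4 decreases were at least 1.5-fold, so 14.8% of HOX genes reached this size as decreases, against 2.62% of all genes. The median log2 fold change was 0.04 over the HOX genes and 0.03 over all genes. RNA was taken from whole cultures, so fewer cells that express a gene and less RNA of it per cell cannot be told apart.

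HOXB9, a posterior HOX gene whose protein has been tied to growth factor expression in breast cancer cells, gave deposited intensities of 426.0, 448.8 and 425.3 in the menthol arrays, against 1312, 1227 and 1213 in the vehicle arrays. Every menthol array lay far below every vehicle array. On the log2 scale the means were 8.76 ± 0.04 with menthol and 10.29 ± 0.06 with vehicle (SD, n = 3 each). The change was -1.53 ± 0.06 (moderated SE) with an adjusted p of 2.22e-05. HOXB13, the prostate lineage factor at the posterior end of the same cluster, gave 429.6, 458.1 and 449.6 intensity units with menthol, against 765.0, 757.6 and 759.4 with vehicle. The vehicle arrays of HOXB13 differed little among themselves, with a mean of 8.80 ± 0.05 with menthol and 9.57 ± 0.01 with vehicle on the log2 scale. Its change was -0.77 ± 0.06 with an adjusted p of 0.000143.

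**Figure D1:**
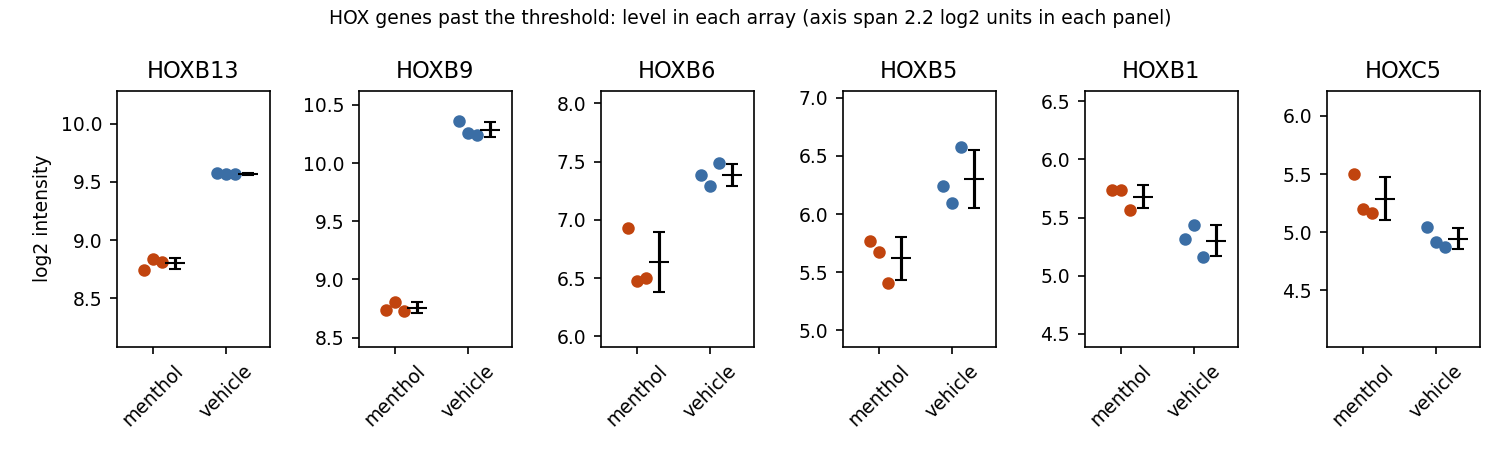
Log2 intensity (vertical axis) of the 6 HOX genes past the threshold in each of the 3 menthol arrays (left in each panel) and the 3 vehicle arrays (right); points are arrays, and bars beside them are the mean ± SD. The groups do not overlap in any of the 6 genes, and HOXB9 shows the widest gap, with means of 8.76 and 10.29.

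HOXB6 and HOXB5, neighbours in the middle of the cluster that help to pattern the trunk of the embryo, fell by smaller amounts. HOXB6 had log2 intensities of 6.93, 6.48 and 6.50 in the menthol arrays, against 7.38, 7.30 and 7.49 in the vehicle arrays. Menthol replicate 1 lay nearest to the vehicle arrays. The change of HOXB6 was -0.75 ± 0.13 with an adjusted p of 0.00395. HOXB5 had 5.77, 5.68 and 5.41 with menthol, against 6.24, 6.09 and 6.58 with vehicle. Its arrays were more scattered, yet the groups stayed apart, and the change was -0.68 ± 0.14 with an adjusted p of 0.00911. HOXB9, HOXB13, HOXB6 and HOXB5 each kept the call with any array left out, and HOXB5 was left out of the fit by the filter at the 50th percentile of brightness.

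HOXB1, at the anterior end of the cluster, is a hindbrain gene that in the mouse maintains its own transcription together with PBX cofactors. It had log2 intensities of 5.74, 5.74 and 5.56 with menthol, against 5.31, 5.43 and 5.16 with vehicle, and rose by 0.38 ± 0.09 (adjusted p = 0.0160). Without menthol replicate 2 or vehicle replicate 3 it did not pass (adjusted p = 0.0548 and 0.0506, in a range of 0.00738 to 0.0548 over its alternatives). HOXC5, a gene of the HOXC cluster with a mid-trunk domain, had 5.50, 5.20 and 5.17 with menthol, against 5.05, 4.92 and 4.87 with vehicle, and rose by 0.34 ± 0.10 (adjusted p = 0.0379). HOXC5 did not pass with quantile or cyclic loess normalization, without menthol replicate 1 or 2, or with any single vehicle array omitted (adjusted p from 0.0199 to 0.113 over its alternatives). Of all genes, the signal of HOXB1 lay at the 35.8th percentile and that of HOXC5 at the 30.3rd, while HOXB9 lay at the 91.4th and HOXB13 at the 88.3rd. These are ranks of probeset signal, which also depends on the probes.

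The RefSeq promoter table (GRCh38.p14) held 11 of the 27 HOX genes. Of the 6 changed genes the promoters of HOXB1 and HOXC5 were searched, and those of HOXB9, HOXB13, HOXB6 and HOXB5 were not. The window of HOXC5 has no match to TGATNNAT, used here as a pattern for a paired HOX and PBX site. Other forms of such a site were not searched for and are not marked. That of HOXB1 is shown because it has a match. The window is chr17:48530962-48531261 on the minus strand, from 250 bases before the start of the gene to 50 after it, and the capitals mark the match.
HOXB1: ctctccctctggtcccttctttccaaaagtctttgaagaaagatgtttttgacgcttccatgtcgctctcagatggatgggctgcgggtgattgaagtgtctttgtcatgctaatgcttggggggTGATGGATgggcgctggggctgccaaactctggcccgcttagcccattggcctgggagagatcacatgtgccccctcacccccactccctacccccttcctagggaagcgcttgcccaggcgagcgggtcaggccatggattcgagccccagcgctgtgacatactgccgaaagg
On both strands TGATNNAT occurred in 3 of the 11 HOX windows, those of HOXB1, HOXA2 and HOXD11, and in 2598 of 35116 windows of the table (7.4%). HOXA2 and HOXD11, of which HOXD11 was chosen after its values were seen, did not pass, with changes of -0.02 ± 0.12 and 0.09 ± 0.08. The match describes the letters of the window and was not tested as a binding site.

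Along the chromosome the genes called as decreases were interrupted by dimmer probesets that did not pass as decreases. In the RefSeq order of the measured genes, HOXB13 was followed by PRAC1, MIR196A1, HOXB9, HOXB8, HOXB7, HOXB6, HOXB5, HOXB-AS3, MIR10A, HOXB4, HOXB3, HOXB2 and HOXB1. PRAC1, which encodes a small nuclear protein of prostate, rectum and distal colon, had log2 intensities of 7.61, 7.46 and 7.27 with menthol, against 7.86, 8.05 and 8.10 with vehicle. It fell by 0.55 ± 0.10 (adjusted p = 0.00628), with every menthol array below every vehicle array. HOXB8 and HOXB7, between HOXB9 and HOXB6, did not pass and had changes of 0.23 ± 0.13 and 0.28 ± 0.10 (HOXB8 was chosen after its values were seen). Their probesets lay at the 29.9th and 28.9th percentile of signal, where a fall could go unseen. HOXB8 passed as an increase without vehicle replicate 2. HOXB7 passed without vehicle replicate 3, with array weights and with the filter at the 25th percentile of brightness, in a range of adjusted p of 0.0363 to 0.206. Anterior to HOXB5, HOXB3 had a change of -0.14 ± 0.06 (adjusted p = 0.103) and passed under quantile normalization alone. On the far side of HOXB13, TTLL6 and CALCOCO2, chosen after their values were seen, had changes of 0.01 ± 0.11 and -0.18 ± 0.08 and did not pass.

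**Figure D2:**
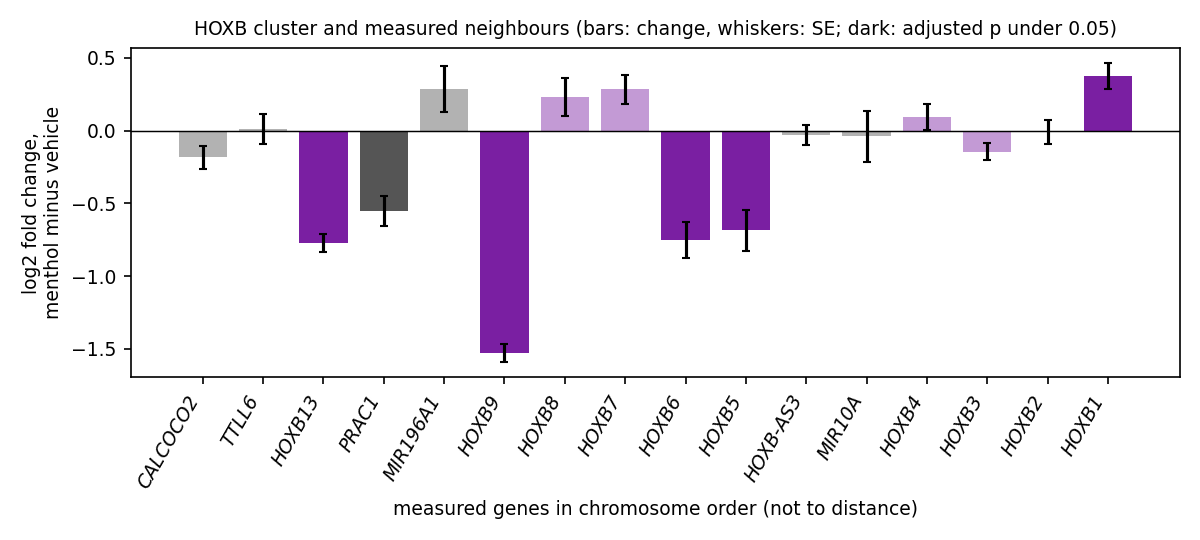
Log2 fold change, menthol minus vehicle (vertical axis; bars, with SE as whiskers), of the measured genes of the HOXB cluster and its neighbours, in chromosome order without distances. Purple bars are HOXB genes and grey bars other genes, and the dark bars are past the threshold; HOXB13, PRAC1, HOXB9, HOXB6 and HOXB5 lie below 0 and HOXB1 lies above it.

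The promoter window of PRAC1 (RefSeq, GRCh38.p14, chr17:48722469-48722768, minus strand) is shown because this gene lies between the HOXB genes with the lowest adjusted p and fell with them. It has no match to TGATNNAT and therefore no capitals.
PRAC1: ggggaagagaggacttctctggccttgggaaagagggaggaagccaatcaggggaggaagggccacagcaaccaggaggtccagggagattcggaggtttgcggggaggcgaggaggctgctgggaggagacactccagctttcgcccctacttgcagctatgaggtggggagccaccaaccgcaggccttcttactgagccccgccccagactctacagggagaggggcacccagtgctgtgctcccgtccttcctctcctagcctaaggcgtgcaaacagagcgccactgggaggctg

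The HOXB cluster also holds 2 measured microRNA genes, and their mature sequences are shown because miR-196a is known to direct cleavage of the HOXB8 transcript and both lie inside the cluster. The sequences are from RefSeq (GRCh38.p14), and the capitals mark the seed, bases 2 to 8, which differs between them.
hsa-miR-10a-5p: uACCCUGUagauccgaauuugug
hsa-miR-196a-5p: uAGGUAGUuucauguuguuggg
MIR196A1, between PRAC1 and HOXB9, had log2 intensities of 5.33, 4.76 and 4.83 with menthol, against 4.77, 4.80 and 4.49 with vehicle, and did not pass (0.28 ± 0.16, adjusted p = 0.218). The groups overlapped. MIR10A had a change of -0.04 ± 0.17 (adjusted p = 0.894). The probesets lie in the 26.1st and 2.34th percentile of signal, and the assay labels total RNA transcripts, so levels of the mature microRNAs were not measured. MIR196A2 of the HOXC cluster encodes the same mature miR-196a-5p. It had a change of 0.11 ± 0.06 (adjusted p = 0.254) at the 15.7th percentile of signal and did not pass, though every menthol array lay above every vehicle array. MIR196A1, MIR10A and MIR196A2 were named after their values were seen.

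No measured paralogue of HOXB9, HOXB13 or HOXB5 passed the threshold as a decrease in the fit as reported. In group 9, HOXB9 changed by -1.53, while HOXC9 and HOXD9 had values of 0.28 ± 0.12 (adjusted p = 0.135) and 0.16 ± 0.07 (adjusted p = 0.106). In group 13, HOXB13 changed by -0.77, while HOXC13, a regulator of hair keratins, had -0.19 ± 0.06 (adjusted p = 0.0530) and HOXD13, a gene of digit and genital development chosen after its values were seen, had -0.03 ± 0.12. HOXC13 lay at 6.56, 6.63 and 6.60 with menthol, against 6.77, 6.74 and 6.86 with vehicle. It passed under all 3 other normalizations (adjusted p = 0.0374, 0.0376 and 0.0478), with both filters on dim genes and with 16 units added before log2, in a range of 0.0126 to 0.158. In group 5, HOXB5 fell and HOXC5 rose. In group 1, HOXB1 rose by 0.38 and HOXD1 had 0.25 ± 0.09 (adjusted p = 0.0646). HOXD1 passed with the filter at the 25th percentile of brightness, with the trended prior, with 16 units added before log2 and without menthol replicate 2, in a range of 0.0378 to 0.183.

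For the 6 pairs in which a member had passed, the difference between paralogues is given as a description with no test, since the pairs were chosen on these arrays. The difference in log2 change was -1.80 for HOXB9 minus HOXC9, -1.69 for HOXB9 minus HOXD9, -1.03 for HOXB5 minus HOXC5, -0.58 for HOXB13 minus HOXC13 and -0.75 for HOXB13 minus HOXD13, and for HOXB1 minus HOXD1 it was 0.13. By percentile of signal, HOXB9 lay at the 91.4th, HOXC9 at the 22.5th and HOXD9 at the 39.8th. HOXB13 lay at the 88.3rd, HOXC13 at the 53.4th and HOXD13 at the 48.3rd. A dim probeset can show less of a fall than a bright one, so these differences cannot be read as differences in regulation. Whether probes for a HOX gene also bind a paralogue's transcript was not tested.

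**Figure D3:**
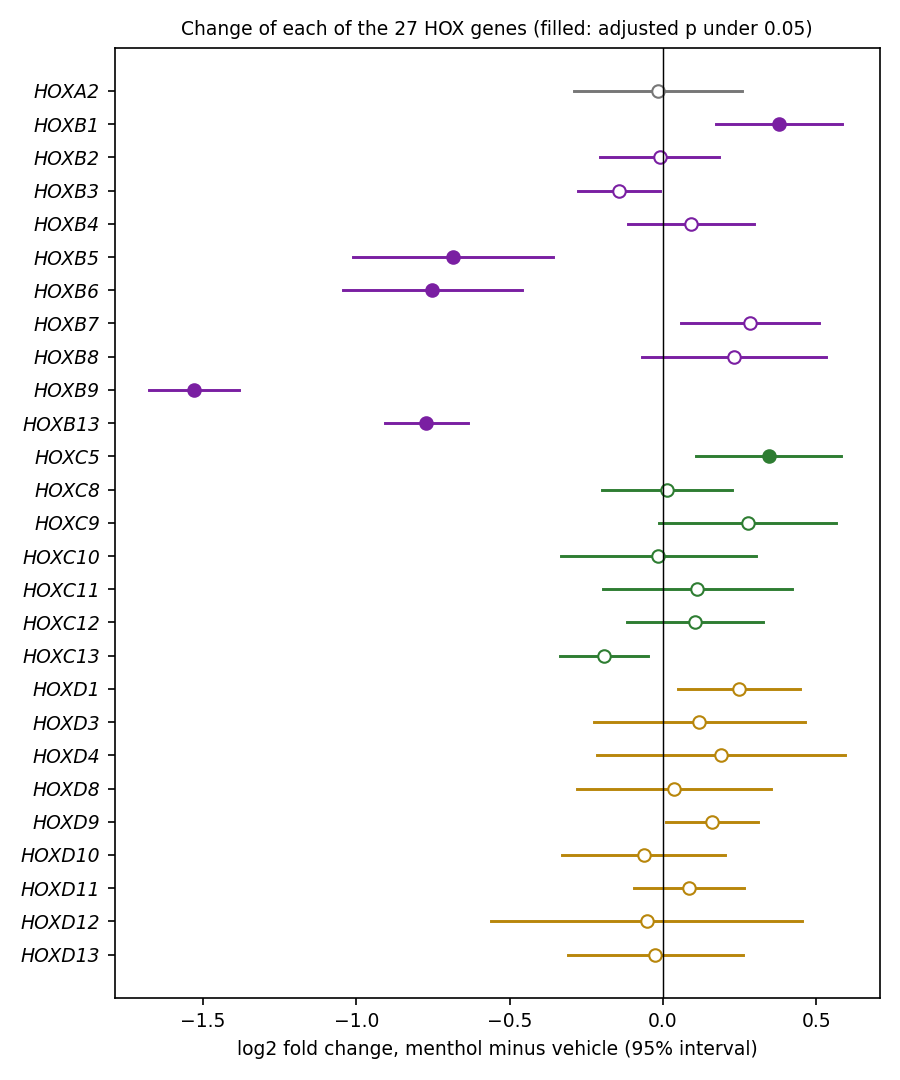
Log2 fold change, menthol minus vehicle (horizontal axis), of each of the 27 HOX genes with its 95% interval, grouped by cluster (colours) and ordered by paralogous group; filled points are past the threshold. The 4 filled points below 0 are HOXB5, HOXB6, HOXB9 and HOXB13, and the 2 above 0 are HOXB1 and HOXC5.

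By cluster, 4 of 10 HOXB genes fell and 1 rose, with a median log2 fold change of -0.08, where 14.5% of all genes fell and 14.6% rose. Of 7 HOXC genes 1 rose and 0 fell (median 0.10), and of 9 HOXD genes 0 passed (median 0.09). HOXA2, a gene of the anterior hindbrain and neural crest, was the single HOXA gene, with log2 intensities of 6.46, 6.51 and 6.14 with menthol, against 6.51, 6.21 and 6.44 with vehicle. By position, 2 of 12 genes of groups 9 to 13, which specify posterior structures, fell, as did 2 of 7 in groups 5 to 8 and 0 of 8 in groups 1 to 4. These counts are small, and no difference between clusters or positions was tested. The 21 genes that did not pass had changes from -0.19 to 0.28. For 20 of them the 95% interval of the change lay within 1.5-fold in either direction, and the upper bound of HOXD4 reached 0.59 on the log2 scale. These genes lay at percentiles of signal from 14.1 to 53.4. An interval from a dim probeset bounds the change in its signal and may not bound the change in transcript. In 6 HOX genes every menthol array lay below every vehicle array and in 5 above it, which is 11 of 27. Of all genes, 45.3% had groups without overlap, 21.7% with menthol below and 23.5% with menthol above.

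**Figure D4:**
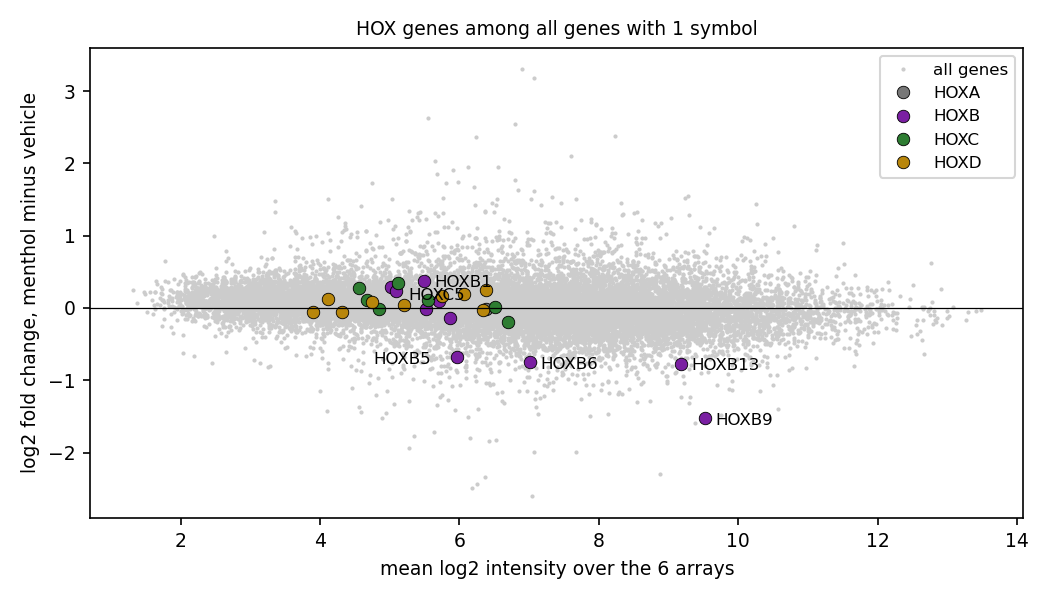
Log2 fold change, menthol minus vehicle (vertical axis), against the mean log2 intensity over the 6 arrays (horizontal axis), with all 18404 genes in grey and the HOX genes coloured by cluster. HOXB9 and HOXB13 stand alone among the HOX genes in the brightest set of 4601 genes, and most other HOX genes lie near 0 at low intensity.

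Most HOX probesets were dim. With all genes split by mean signal into 4 sets of 4601, 5 of the 27 HOX genes lay in the dimmest set, 17 in the next, 3 in the one above it and 2, HOXB9 and HOXB13, in the brightest. Of all genes in the brightest set, 1239 fell and 792 rose, and in the set with 17 HOX genes 414 fell and 615 rose. Among all genes the share that fell was 20.2% in the set below the brightest and 26.9% in the brightest, and the share that rose was 17.5% and 17.2%. The deposited table holds no detection call, so whether a dim HOX gene is transcribed at all cannot be read from it.

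The TALE homeodomain proteins are the DNA-binding partners of HOX proteins. Of 10 measured genes of this list 2 fell and 0 rose (median -0.11), where 14.5% of all genes fell and 14.6% rose: TGIF2, a TALE repressor, fell by 0.32 ± 0.07 and MEIS3, a MEIS family cofactor, by 0.32 ± 0.10. MEIS3 did not pass with the replicate block, with the dimmest probeset of a gene or without menthol replicate 1 or 2 or vehicle replicate 1 or 2. Without menthol replicate 1 or vehicle replicate 1 or 2, 1 gene of the list fell, and with the filter at the 50th percentile of brightness 1 rose. Of 35 other homeobox genes 8 fell (22.9%) and 2 rose (5.71%), with a median of -0.04. POU3F2, a neural POU-domain factor, fell by 0.51 ± 0.09 and SATB1, a chromatin organiser, by 0.41 ± 0.08. Without menthol replicate 2 or 3 or vehicle replicate 1, 4 of these genes fell, and without vehicle replicate 2 or 3, 5 fell. None rose without menthol replicate 2 or vehicle replicate 1 or 3, and 1 rose without menthol replicate 3 or under quantile or cyclic loess normalization.

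Polycomb proteins keep HOX clusters silent. Of 26 measured Polycomb genes 8 fell (30.8%) and 1 rose (3.85%), with a median of -0.13, where 14.5% of all genes fell and 14.6% rose. Of these genes 24 lay in the 2 brightest sets, where 20.2% and 26.9% of all genes fell. CBX2, a reader of methylated histone H3, had log2 intensities of 6.59, 6.53 and 6.55 with menthol, against 7.18, 7.18 and 7.14 with vehicle, and fell by 0.61 ± 0.06 (adjusted p = 0.000328). PHC2, a subunit of the same PRC1 complex, fell by 0.55 ± 0.07 and PCGF2 by 0.39 ± 0.07. EED, a subunit of the PRC2 methyltransferase, rose by 0.38 ± 0.09. Without vehicle replicate 1 or 2 no Polycomb gene rose, EED included, and without menthol replicate 1, 4 rose. Under 7 of the other alternatives 2 to 4 rose.

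MLL and trithorax proteins keep HOX genes active, and menin, the product of MEN1, tethers MLL to HOX loci. Of 24 measured genes of this list 7 fell (29.2%) and 4 rose (16.7%), with a median of -0.17, where 14.5% of all genes fell and 14.6% rose. Of the list 20 genes lay in the 2 brightest sets, where 20.2% and 26.9% of all genes fell. MEN1 had log2 intensities of 7.79, 7.80 and 7.75 with menthol, against 8.48, 8.39 and 8.42 with vehicle, and fell by 0.65 ± 0.06 (adjusted p = 0.000283). PSIP1, whose product LEDGF links menin and MLL to chromatin, fell by 0.51 ± 0.06 and HCFC1, a scaffold of MLL complexes, by 0.62 ± 0.07. MLLT3, a reader of acylated histones in the elongation machinery, rose by 0.59 ± 0.08. Without vehicle replicate 1, 4 genes fell and without vehicle replicate 3, 3 fell. With 16 units added before log2, under equal array medians or with the filter at the 25th percentile of brightness, 12 fell, and 11 fell with the trended prior or array weights. Without menthol replicate 2 or 3 or any single vehicle array, 2 rose. Of 11 genes of cohesin, CTCF and other architectural factors 4 fell and 2 rose (median -0.21), and all 11 lay in the 2 brightest sets. Among them were the cohesin loader NIPBL, which fell by 0.41 ± 0.08 on the log2 scale, the cohesin subunit RAD21, which fell by 0.40 ± 0.07, and the cohesin release factor WAPL, which rose by 0.41 ± 0.07. Without menthol replicate 3 or vehicle replicate 1 or 2, 1 of the architectural genes rose.

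**Figure D5:**
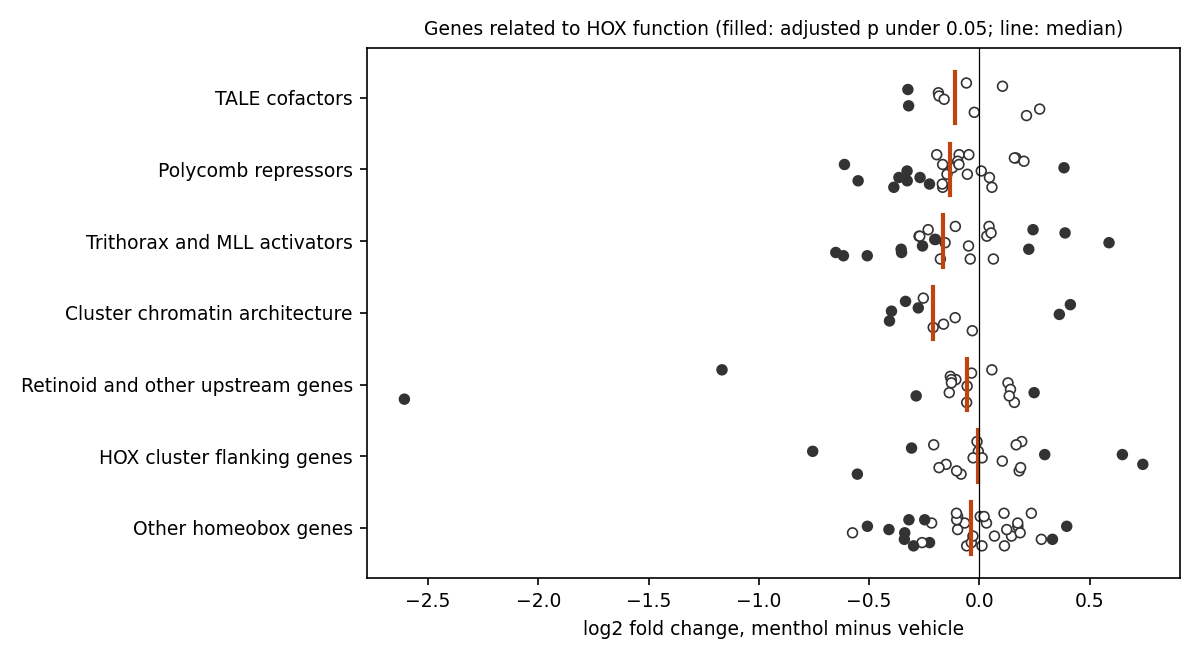
Log2 fold change, menthol minus vehicle (horizontal axis), of the measured genes of 7 lists related to HOX function (points; filled past the threshold; red line, the list's median). More Polycomb genes are filled below 0 (8) than above it (1), and DHRS9 and CRABP2 lie farthest left.

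Retinoic acid is a classical inducer of HOX transcription. Of 17 measured genes of retinoid handling and other upstream signals 3 fell and 1 rose (median -0.06), and the 17.6% that fell is near the 14.5% of all genes. CRABP2, which carries retinoic acid to its nuclear receptors, had log2 intensities of 7.76, 7.68 and 7.68 with menthol, against 8.86, 8.86 and 8.90 with vehicle, and fell by 1.17 ± 0.06 (adjusted p = 3.78e-05). The retinol dehydrogenase DHRS9 fell by 2.61 ± 0.09. CYP26B1, which degrades retinoic acid, fell by 0.29 ± 0.07 and did not pass without menthol replicate 1 or 2 or vehicle replicate 1. The gene that rose, ALDH1A3, did so by 0.25 ± 0.06 on its brightest probeset alone: with the mean of its probesets the value was -0.02 and with its dimmest probeset -0.28. Without vehicle replicate 1 or 2 it did not pass, and 0 genes of the list rose.

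Around the clusters, of 20 flanking genes 3 rose and 3 fell (median -0.01), 15.0% each way, close to the 14.6% and 14.5% of all genes. SKAP2 and SNX10, which flank HOXA, rose by 0.74 ± 0.06 and 0.65 ± 0.07. SKAP1, the adaptor gene on the HOXB1 side of the HOXB cluster, had log2 intensities of 5.22, 4.43 and 4.30 with menthol, against 5.37, 5.24 and 5.62 with vehicle, and fell by 0.76 ± 0.23 (adjusted p = 0.0422). SKAP1 did not pass without menthol replicate 2 or 3 or any single vehicle array, in a range of adjusted p up to 0.125. Without menthol replicate 2 or any single vehicle array, 1 flanking gene fell. Under quantile or cyclic loess normalization, the trended prior or array weights 5 flanking genes rose. Of 6 measured non-coding RNAs of the clusters 1 rose and 0 fell, where 14.6% of all genes rose and 14.5% fell: HOXA-AS2 had a change of 0.30 ± 0.09 and did not pass with any of the 6 arrays left out. HOXB-AS3, named after its values were seen, had -0.03 ± 0.07. Of 8 caudal, ParaHox and EVX genes 1 rose (12.5%, against 14.6% of all genes), EVX2 beside HOXD13, by 0.31 ± 0.10, and it did not pass under any of the 3 other normalizations or without any single array other than vehicle replicate 2.

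Of 25 measured genes on a list of reported HOX targets 7 rose (28.0%) and 6 fell (24.0%), with a median of 0.09, where 14.6% of all genes rose and 14.5% fell. In this list 16 genes lay in the 2 brightest sets, where 17.5% and 17.2% of all genes rose and 20.2% and 26.9% fell. The membrane protease gene MMP14 rose by 0.79 ± 0.06, the prostate epithelial factor SPDEF by 0.59 ± 0.10 and TGFB2 by 0.43 ± 0.08, and the ephrin receptor gene EPHA3 fell by 0.52 ± 0.07. Without vehicle replicate 3, 4 of these genes rose, and without menthol replicate 2 or 3 or vehicle replicate 2, 3 fell. Of 9 measured luminal prostate genes 3 rose and 0 fell (median 0.24), where 14.6% of all genes rose and 14.5% fell. FOXA1, a pioneer factor that works with HOXB13 and the androgen receptor, rose by 0.95 ± 0.09, and the keratins KRT18 and KRT8 by 0.87 ± 0.06 and 0.56 ± 0.06. KLK3, the androgen receptor target that encodes PSA, chosen after its values were seen, lay at the 32.2nd percentile of signal with a change of 0.02 ± 0.10.

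Markers of other cell types lay mostly in the 2 dimmest sets: 8 of 10 fibroblast, 8 of 8 endothelial and 6 of 7 leukocyte markers. Of the fibroblast markers 2 fell and 3 rose, where 14.5% of all genes fell and 14.6% rose, and the summed intensity of the list was 461 to 479 with menthol, against 699 to 723 with vehicle, PDGFRA being the gene with the largest fall (-1.99 ± 0.14). Of the endothelial markers 3 rose and 0 fell, with a summed intensity of 355 to 365 with menthol, against 236 to 248 with vehicle, led by KDR (1.42 ± 0.09). Of the leukocyte markers 1 rose, CD68 by 0.29 ± 0.07, with sums of 692 to 734 with menthol, against 585 to 619 with vehicle. By percentile of signal among all genes, the fibroblast markers ran from LUM at the 0.717th to COL1A1 at the 70.7th, with PDGFRA at the 59.2nd. The endothelial markers ran from EMCN at the 2.84th to CLDN5 at the 48.6th, with KDR at the 46.6th, and the leukocyte markers from PTPRC at the 2.96th to CD68 at the 87.2nd (LUM, COL1A1, EMCN and PTPRC were named after their values were seen). With an array left out, 0 to 1 fibroblast markers rose, and CD68 did not pass without vehicle replicate 1 or 2. Without vehicle replicate 3 or with array weights, 2 leukocyte markers rose. All 6 arrays were of cultures of a single line, PC-3, with no other cell type named in the labels. Which cells gave these signals, and any part of other cells in the HOX values, was not tested.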

How the data were processed

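The authors deposited 1 table of intensity values, 32321 probesets in 6 arrays, made with RMA (background correction, quantile normalization and probeset summary), per the submitters' processing notes. The values ran from 1.57 to 14835 and array medians from 47.4 to 49.1, so they are linear, and their log2 was analysed. The labels give no upstream software version. The number of arrays limits the precision, and the labels do not say whether replicates were separate cultures, so p-values may measure technical spread alone.

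Probesets were named from the platform annotation: 19158 had 1 symbol, 1388 several and 11775 no gene named here. For each of 18404 genes the probeset with the highest mean was kept. The menthol and vehicle arrays were then tested in R 4.3.3 using lmFit and eBayes of limma 3.58.1, with log2 intensity modelled on group alone, by two-sided tests adjusted after Benjamini and Hochberg over all genes, at a threshold of 0.05. No filter on low values was used. Fold changes are menthol minus vehicle, with moderated SE. The code of the fit was run on simulated data with independent normal noise and 200 changed genes. Such data cannot show how the fit performs on these arrays, where 5353 genes passed. Figures were made with matplotlib 3.10.9.

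The HOX genes, HOXB9 and HOXB13 as their markers, the gene lists and the tests were chosen with earlier results of these data known, so their p-values are not independent support. By rule, each HOX gene past the threshold and HOXB9 and HOXB13 were named, with up to 2 others per cluster by smallest p. Of each list, up to 4 genes past the threshold with the largest change, or up to 2 with the smallest p, could be named. The alternatives were 3 normalizations (quantile, equal medians, cyclic loess), 2 filters on dim genes, 2 other uses of probesets, array weights, a replicate block, an intensity-trended robust prior using statmod 1.5.0, 16 units added before log2 and each array left out in turn.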

Additional observations from a re-analysis of the deposited data

How the results depend on the processing

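HOXB9 and HOXB13 kept their direction and call under all 17 alternatives, with log2 fold changes of -1.55 to -1.47 and -0.79 to -0.72. HOXB6 and HOXB5 did so in every alternative whose fit held them (-0.90 to -0.67 and -0.79 to -0.54). The 2 other uses of probesets could not change a HOX log2 fold change, since each HOX gene had a single probeset. The number of HOX genes that rose was 2 as reported, 1 under quantile normalization, 1 under cyclic loess normalization, 4 with the filter at the 25th percentile of brightness (which left 22 HOX genes), 0 with the filter at the 50th percentile (which left 5), 3 with array weights, the trended prior or 16 units added, and 1 to 2 with each array left out in turn. The number that fell was 4 as reported, 6 under quantile normalization, where HOXB3 and HOXC13 also passed, and 5 with HOXC13 under equal medians, cyclic loess, the 25th percentile filter or 16 units added. With the 50th percentile filter it was 4, HOXC13 in place of HOXB5, and it was 4 with any array left out. HOXA2 changed sign with array weights (0.037) and ranged from -0.10 to 0.10 with each array left out. ALDH1A3 changed sign with the mean of a gene's probesets (-0.0181) and with its dimmest probeset (-0.285). Same-numbered menthol and vehicle arrays deviated together little (correlations of 0.01, -0.01 and 0.09 across genes). With 3 arrays per group this cannot decide whether the numbers pair them. With the replicate block 4868 genes passed in place of 5353, 4 HOX genes fell and 2 rose. The cause of these shifts was not tested, except that the filters remove genes from the fit. Over 13 named HOX genes and their alternatives 184 of 211 values kept direction and call, a count that includes the 2 other uses of probesets. Dim probesets limit what a low signal can show.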
